A study of Mus musculus with 6 samples.

Results

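Sox factors are transcription factors with a DNA-binding domain related to that of Sry, and the 10 described here mark epiblast, neural and endoderm fates open to differentiating embryonic stem (ES) cells. They are Sox1, Sox2, Sox3, Sox4, Sox7, Sox9, Sox11, Sox12, Sox17 and Sox21. Each was looked up by its gene symbol in the authors' deposited table of 36699 gene rows. Of the 10, 9 had a row of their own, and all 9 were among the 18537 rows that the authors tested. Sox1, a marker of the first neural plate cells, was not analysed here.

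The cells were mouse A2Lox.cre ES cells, a line built to take up a transgene that responds to doxycycline, grown in suspension as embryoid bodies and harvested on day 3. In the plus dox group (3 libraries, replicates 1, 3 and 4), doxycycline was given from day 2, for 24 hours, and induced Flag-Sp5, a tagged form of a zinc-finger factor of the Sp family. The minus dox group (3 libraries, replicates 2, 3 and 4) received no drug, and the comparison asked which genes Sp5 regulates. Both groups are labelled with the Flag-Sp5 line, and doxycycline and Flag-Sp5 differ together between them, so their effects cannot be told apart. Whether the replicates were separate cultures is not labelled, and p-values may then reflect technical spread alone.

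Sox proteins bend DNA by binding the minor groove at short sites with the core ACAA, and they usually act with a partner factor bound beside them. In ES cells the partner of Sox2 is the POU factor Oct4 (Pou5f1), and in neural cells Sox2 works with POU factors of class III. Sox genes are sorted by sequence into lettered groups, and members of a group can stand in for each other, as Sox1, Sox2 and Sox3 of group SoxB1 do in neural progenitors.

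Each level below is the authors' FPKM (fragments scaled to transcript length and library size), 1 value per group, into which the authors combined that group's libraries. No SD or n therefore accompanies a level, depth is unknown, and only the authors' Cuffdiff test takes the spread between libraries into account. A gene is said to have risen or fallen where its q was under 0.05 in the authors' deposited table. Beside a log2 fold change (plus over minus dox) stands a 95% interval, computed here from the standard error that the deposited test implies, which is the fold change divided by the test statistic. Sp5 itself stood at 126 FPKM with doxycycline and 0.769 FPKM without it in the authors' deposited table, a level in which transgene and endogenous gene are counted together. Pou5f1, a defining factor of pluripotent cells, stood at 1058 FPKM with doxycycline and 999 FPKM without it.

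Sox3, Sox7 and Sox4 fell with doxycycline, Sox2 and Sox17 had nearly equal levels in both groups, and Sox9 and Sox21 were under 1 FPKM throughout. By the authors' Cuffdiff test, as deposited, the 9 tested Sox factors held 3 falls, 0 rises and 6 genes without a call. Among all tested rows, 23.2% were called, 12.7% falling and 10.5% rising, and among rows with at least 1 FPKM in the higher group 28.3% were called. With 9 genes, 3 calls (33.3%) lie close to the 23.2% of all tested rows. Of the 7 Sox factors with at least 1 FPKM in the higher group, 3 fell (42.9%), against 16.8% of all such rows. With so few genes, no more is read from either count than the change of each gene named. At an unadjusted p under 0.05, 4 of the 9 were lower and 1 was higher. The median log2 fold change of the 9 was -0.0034, against -0.029 over all tested rows with both groups above 0. In bulk RNA, fewer cells of a type and less RNA per cell cannot be told apart, and this holds for every fall below.

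**Figure D1:**
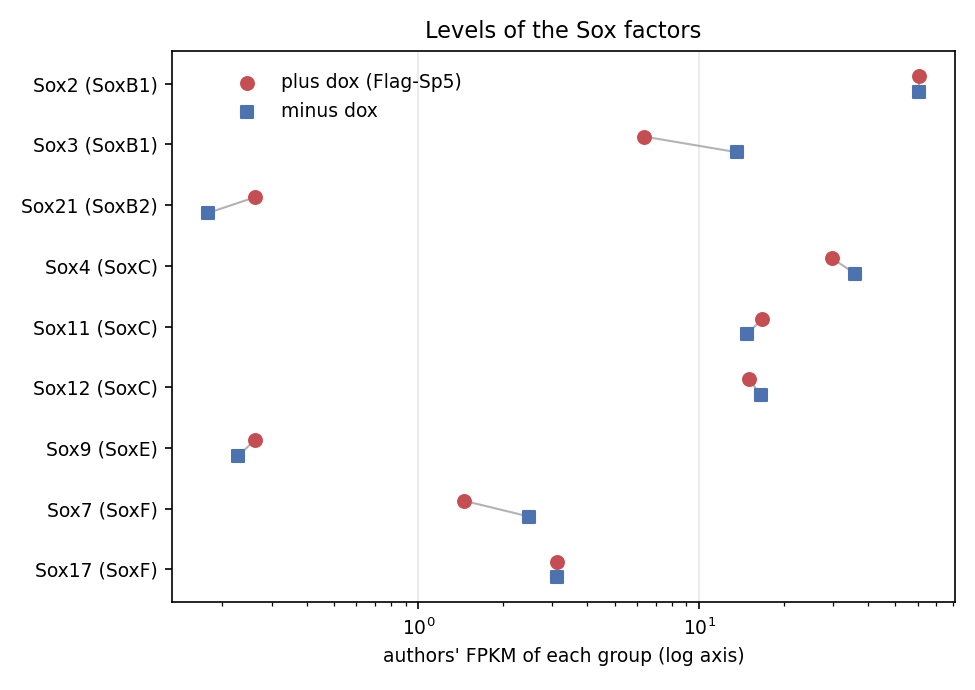
Authors' FPKM of each Sox factor with a row (log axis), with the plus dox group as red circles and the minus dox group as blue squares, 1 combined value per group and no error bar. Sox3 lies at 6.37 FPKM with doxycycline and 13.7 FPKM without it, while the 2 marks of Sox2 and of Sox17 stand one above the other.

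Sox2 and Sox3 are the SoxB1 members measured. Sox2, which with Oct4 holds ES cells pluripotent and is kept on in the neural plate, had the highest level of the 9 in each group, at 60.6 FPKM with doxycycline and 60.8 FPKM without it. Its log2 fold change was -0.0034 (95% interval -0.13 to 0.12, q = 0.992 in the authors' deposited table), so a fold outside 0.914 to 1.09 lies beyond that interval. The level of Sox2 exceeded that of 92.4% of tested rows with doxycycline and 92.1% without it. The locus listed for Sox2 spans 578182 bases of mm9 and holds 7 rows. The gene itself spans 2057 bases in GENCODE vM21 (another build, compared by length only). The part of the other rows in the level and interval of Sox2 was not tested.

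Sox3, an X-linked factor of the epiblast and early neural plate, stood at 6.37 FPKM with doxycycline and 13.7 FPKM without it. It was the largest fall of the 9, a 2.15-fold lower level (log2 fold change -1.10, 95% interval -1.27 to -0.94, with q printed as 0, below the smallest value the authors' deposited table shows). Only 1.9% of tested rows with at least 1 FPKM in the higher group had a lower log2 fold change. Its row covers chromosome X, positions 58144545 to 58146605 of mm9, and no other row overlaps it.

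The pair thus differed in composition between the groups. Sox3 made up 9.50% of the summed FPKM of Sox2 and Sox3 with doxycycline and 18.4% without it. The sum itself was 67.0 FPKM with doxycycline and 74.5 FPKM without it, a ratio of 0.900, which as a sum of group values has no test. The level of Sox2 was 9.53 times that of Sox3 with doxycycline and 4.44 times without it. Sox21, of the related group SoxB2 and known as a repressor that counters SoxB1 factors, was far lower, at 0.262 FPKM with doxycycline and 0.178 FPKM without it. It was not called (log2 fold change 0.56, 95% interval -0.12 to 1.23, q = 0.285 in the authors' deposited table). At these levels its interval allows a fold of 0.919 as well as one of 2.35.

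Sox4, Sox11 and Sox12 form group SoxC, which acts in neural and mesenchymal progenitors and in newly formed neurons. Sox4, the second most abundant of the 9, fell to 29.6 FPKM with doxycycline, against 36.0 FPKM without it. The change was small, 1.22-fold lower (log2 fold change -0.28, 95% interval -0.40 to -0.16, q = 7.68e-05 in the authors' deposited table). This call was lost with a minimum fold of 1.5 and under Bonferroni adjustment of the authors' Cuffdiff p over all tested rows (adjusted p = 0.139).

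Sox11 stood at 16.8 FPKM with doxycycline and 14.8 FPKM without it, and Sox12 at 15.1 FPKM with doxycycline and 16.6 FPKM without it. Neither was called. The log2 fold change of Sox11 was 0.18 (95% interval 0.03 to 0.33, p = 0.0172 and q = 0.0692 in the authors' deposited Cuffdiff table) and that of Sox12 was -0.14 (95% interval -0.27 to -0.01, p = 0.0341 and q = 0.119 in the same table). Both intervals leave out 0 because they are not adjusted for the 18537 tests, whereas q is. The 3 genes summed to 61.5 FPKM with doxycycline and 67.4 FPKM without it, and Sox4 gave 48.2% of the sum with doxycycline and 53.4% without it. The row of Sox11 spans 2013 bases of mm9, against 8311 bases for the gene in GENCODE vM21 (another build, compared by length only). The level of Sox11 rests on that shorter model, and its part in the value was not tested.

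Stretches before the start of 4 genes are shown because the induced factor belongs to a family that binds GC boxes (core GGGCGG) and because SoxC holds both a called gene and uncalled ones. RefSeq promoters of build GRCm38.p6 matched 6 of the 10 symbols. Sox3 and Sox7 were not among them, so Sox4 is the only called gene with a promoter here. The 250 bases before the start are printed 5′ to 3′ on the gene's own strand. Capitals mark GGGCGG on either strand (CCGCCC on the other).
Sox2 (chr3:34649745-34649994, plus strand): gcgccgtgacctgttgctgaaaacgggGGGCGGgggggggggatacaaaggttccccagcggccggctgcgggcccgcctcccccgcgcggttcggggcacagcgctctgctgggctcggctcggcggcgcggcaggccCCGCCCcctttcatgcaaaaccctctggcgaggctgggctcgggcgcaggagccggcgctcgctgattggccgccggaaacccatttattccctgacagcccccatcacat
Sox4 (chr13:28953700-28953949, minus strand): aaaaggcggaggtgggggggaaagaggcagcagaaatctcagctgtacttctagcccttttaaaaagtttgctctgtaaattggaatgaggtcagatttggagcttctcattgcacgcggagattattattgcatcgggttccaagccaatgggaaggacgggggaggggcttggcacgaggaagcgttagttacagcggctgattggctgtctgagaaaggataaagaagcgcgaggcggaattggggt
Sox11 (chr12:27342719-27342968, minus strand): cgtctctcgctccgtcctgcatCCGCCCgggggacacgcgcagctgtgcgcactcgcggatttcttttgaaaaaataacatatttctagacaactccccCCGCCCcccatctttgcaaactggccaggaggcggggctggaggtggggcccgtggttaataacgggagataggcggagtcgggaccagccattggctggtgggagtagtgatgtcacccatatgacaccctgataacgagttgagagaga
Sox12 (chr2:152398047-152398296, minus strand): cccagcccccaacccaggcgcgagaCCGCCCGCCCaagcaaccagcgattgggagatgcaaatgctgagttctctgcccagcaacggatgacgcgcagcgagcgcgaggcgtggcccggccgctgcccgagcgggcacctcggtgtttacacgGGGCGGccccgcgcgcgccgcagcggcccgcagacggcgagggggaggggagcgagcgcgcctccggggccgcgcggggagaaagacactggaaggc

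Sox4 had no match to GGGCGG in this window, and its GC content was 50.8%. Sox21, which was not called and is not printed, had none either, in 65.2% GC. Sox2 held 2 matches, at positions -223 to -218 and -111 to -106 from the start, in 72% GC. Sox11 held 2 matches, at -228 to -223 and -151 to -146, in 58.0% GC, and Sox12 held 3 in 74.4% GC, of which those at -225 to -220 and -221 to -216 overlap. Of 32851 RefSeq promoters, 32.7% held at least 1 match in the same 250 bases and 8.47% held 3 or more, and the median GC content was 52.4%. The Sox site ACAATGG was searched on both strands as well and was found in none of the 4, against 3.02% of all promoters. These matches are letters in a window, not sites shown to be bound. A link between matches and calls was not tested.

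**Figure D2:**
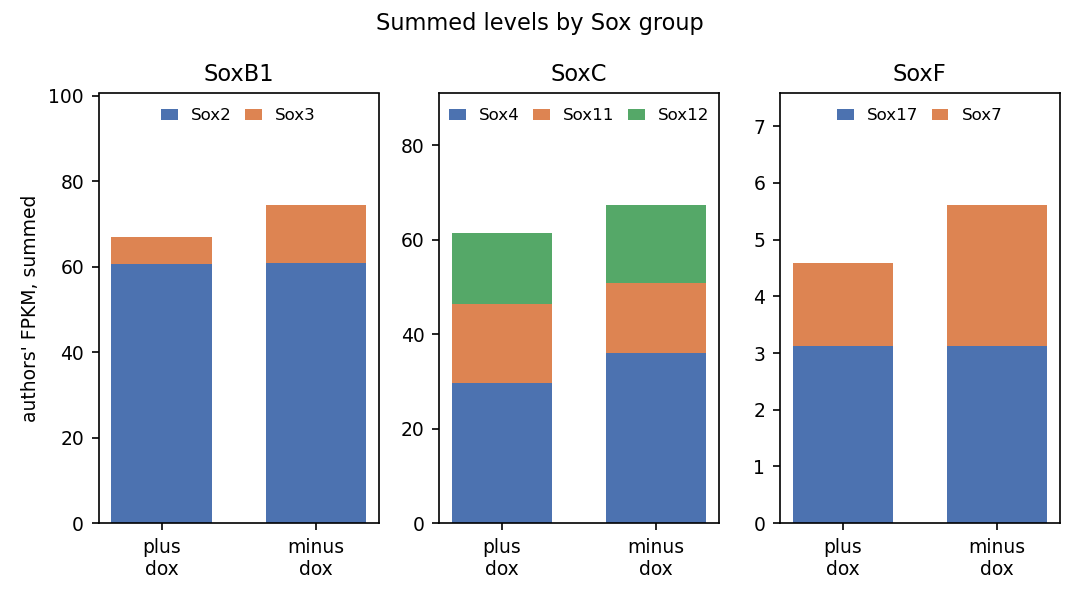
Authors' FPKM of the measured SoxB1, SoxC and SoxF genes stacked in each group (vertical axes start at 0 and differ between panels), with plus dox to the left of minus dox and no error bars. The SoxB1 columns reach 67.0 FPKM with doxycycline and 74.5 FPKM without it, with an almost equal Sox2 part.

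Sox7 and Sox17 are the SoxF members on the list. Sox7, a factor of primitive endoderm and of early blood and vessel precursors, fell to 1.46 FPKM with doxycycline, against 2.49 FPKM without it. Its level was 1.71-fold lower (log2 fold change -0.77, 95% interval -0.99 to -0.55, q = 1.95e-10 in the authors' deposited table), and 4.2% of tested rows with at least 1 FPKM in the higher group had a lower log2 fold change. Its row covers chromosome 14, positions 64562511 to 64569569 of mm9, with no overlapping row.

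Sox17, needed for definitive endoderm and also expressed in visceral endoderm and endothelium, had the same level in both groups to 3 digits, 3.13 FPKM with doxycycline and 3.13 FPKM without it. Its log2 fold change of 0.0006 had a 95% interval of -0.27 to 0.28 (q = 0.999 in the authors' deposited table), which leaves room for folds from 0.827 to 1.21. Sox7 made up 31.8% of the summed FPKM of the pair with doxycycline and 44.3% without it. The intervals of Sox7 and Sox17 did not overlap, and neither did those of Sox3 and Sox2, but the difference between 2 genes' changes was not tested.

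Sox9, of group SoxE and known from neural crest, cartilage and endoderm-derived organs, stood at 0.261 FPKM with doxycycline and 0.228 FPKM without it. It was not called (log2 fold change 0.19, 95% interval -1.51 to 1.89, q = 0.954 in the authors' deposited table). An interval this wide holds folds from 0.352 to 3.71, so it allows a fall as well as a rise.

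**Figure D3:**
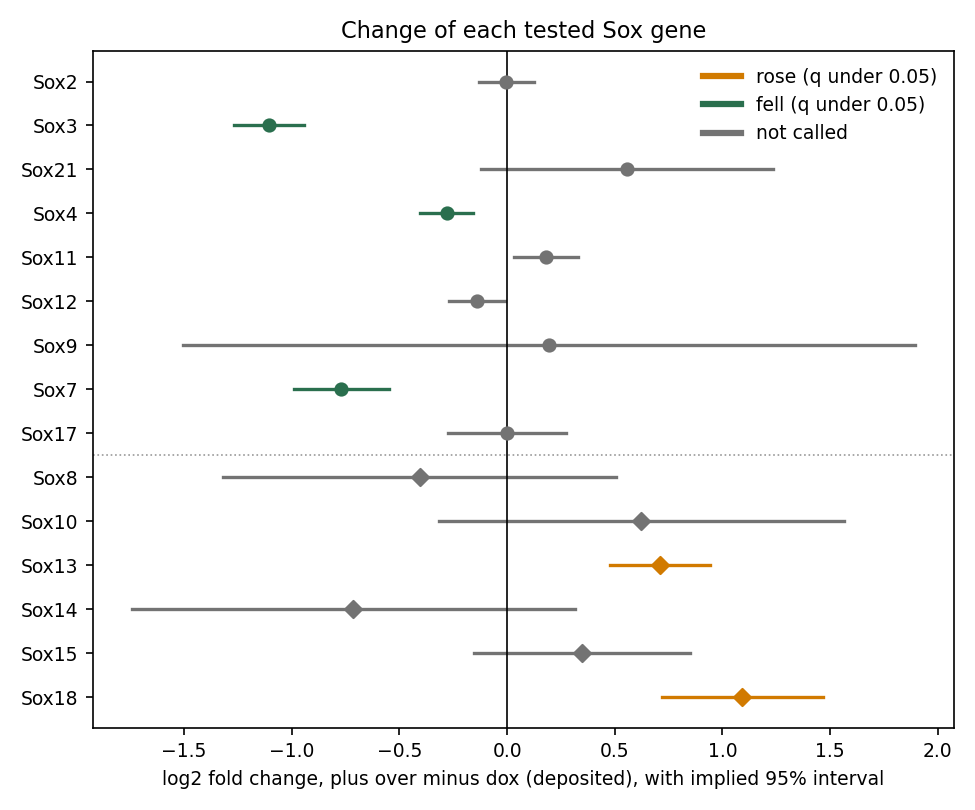
Deposited log2 fold change (plus over minus dox) of the 9 tested Sox factors (circles, above the dotted line) and of the 6 other tested Sox genes (diamonds), with bars for the 95% interval implied by the authors' test. Sox3 lies at -1.10 and Sox7 at -0.77 in the color of falls, and Sox18 at 1.09 and Sox13 at 0.71 in that of rises.

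Ordered by level, the 9 genes ran Sox2, Sox4, Sox11, Sox12, Sox3, Sox17, Sox7, Sox21 and Sox9 with doxycycline, and Sox2, Sox4, Sox12, Sox11, Sox3, Sox17, Sox7, Sox9 and Sox21 without it. Neighbours in that order were close in places. The ratio of Sox11 to Sox12 was 1.11 with doxycycline and 0.892 without it, and that of Sox21 to Sox9 was 1.00 with doxycycline and 0.779 without it. Sox11 exceeded Sox3 by a factor of 2.64 with doxycycline and 1.08 without it, and Sox17 exceeded Sox7 by 2.15 with doxycycline and 1.26 without it. With 1 value per group, no spread is at hand to say which neighbours differ.

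Rows of other genes share a locus with 3 of the 9. Within the merged locus of Sox2 on chromosome 3, a row for Sox2ot, a non-coding transcript around Sox2, together with Mir1897 stood at 0.339 FPKM with doxycycline and 0.270 FPKM without it (q = 0.983 in the authors' deposited table). AC137708.1 in the same locus was listed at 0 with doxycycline and at 47.4 FPKM without it, yet was not called (p = 0.45 and q = 0.717 in the authors' deposited Cuffdiff table). Gm4675 beside Sox21 and Gm17419 beside Sox4 were under 0.1 FPKM in both groups. The library protocol mentions no strand marking, so reads of overlapping transcripts cannot be told apart. This limit also applies to genes of the lists below whose locus holds other rows, among them Pou3f3, Pax6, Irx3, Gbx2, Tfap2a, Gata6, Pecam1 and Col1a1.

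**Figure D4:**
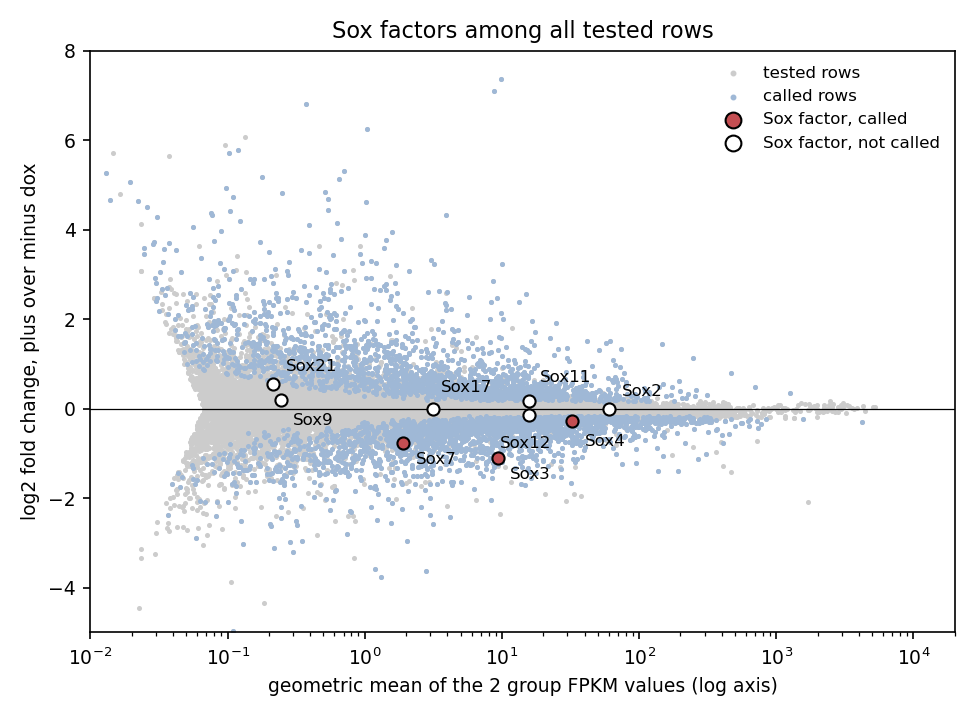
Deposited log2 fold change (plus over minus dox) against the geometric mean of both groups' FPKM (log axis) for tested rows with both groups above 0, called rows in blue and the 9 Sox factors circled, red where called. Sox3, Sox4 and Sox7 lie below 0 among called rows, and Sox2 lies on 0, while 8 of the 18284 rows fall outside the axes.

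The rest of the Sox family was read from the same table. Of 11 other Sox genes listed, 10 were found in the table by symbol, and 6 of these were tested. Cuffdiff, in the authors' deposited table, gave 2 rises, 0 falls and 4 genes without a call, and at an unadjusted p under 0.05 the count of falls was 0 too. The 33.3% called equals the share of the 9 and, with 6 genes, lies close to the 23.2% of all tested rows, so only the change of each gene is read. Sox13, a SoxD factor, rose to 12.5 FPKM with doxycycline, against 7.61 FPKM without it (log2 fold change 0.71, 95% interval 0.48 to 0.94, q = 3.27e-08 in the authors' deposited table). Sox18, the SoxF partner of Sox7 and Sox17 in endothelium, rose to 1.27 FPKM with doxycycline, against 0.594 FPKM without it (log2 fold change 1.09, 95% interval 0.72 to 1.47, q = 1.84e-07 in the authors' deposited table). The SoxF genes thus held a fall (Sox7), a rise (Sox18) and a gene that was not called (Sox17).

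The other tested Sox genes were not called. Sox15, which can replace Sox2 in part in mouse ES cells, stood at 6.60 FPKM with doxycycline and 5.19 FPKM without it (log2 fold change 0.35, 95% interval -0.16 to 0.85, q = 0.402 in the authors' deposited table), in a locus shared with Mpdu1. The neural crest factors Sox8 and Sox10 and the SoxB2 gene Sox14 stayed under 0.25 FPKM in both groups. Sox5, Sox6, Sox30 and Sry were not tested by the authors, with levels under 0.06 FPKM, and Sry was listed at 0 in both groups.

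POU partners of Sox proteins were looked at next, since Sox factors act with them. The authors' deposited table held 1 rise and 1 fall among the 5 tested, with a median log2 fold change of 0.08. Beside this count and each list count below stand the shares of all tested rows, 23.2% called, 12.7% falling and 10.5% rising. Pou3f1 (Oct6), the POU factor of the late epiblast and neural plate, fell to 15.8 FPKM with doxycycline, against 45.9 FPKM without it. Pou3f3 (Brn1) rose to 0.534 FPKM with doxycycline, against 0.1002 FPKM without it. Pou2f1 (4.15 FPKM with doxycycline, 4.11 FPKM without it) and Pou3f4 (0.171 FPKM with doxycycline, 0.118 FPKM without it) were not called, nor was Pou5f1, and Pou3f2 was too low to be tested.

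Genes listed as targets of Sox2 and Oct4 at an enhancer did not move as one. The authors' deposited table held 2 rises and 3 falls among the 8 tested, with a median log2 fold change of 0.04. Utf1, a chromatin factor of ES cells, fell to 119 FPKM with doxycycline, against 314 FPKM without it. Fgf4, the ligand that drives ES cells to differentiate, fell to 15.3 FPKM with doxycycline, against 25.4 FPKM without it, and Dppa4 fell to 45.8 FPKM with doxycycline, against 56.3 FPKM without it. Nanog rose to 117 FPKM with doxycycline, against 46.0 FPKM without it, and the Nodal antagonist Lefty1 to 95.9 FPKM with doxycycline, against 34.8 FPKM without it. Spp1 (97.8 FPKM with doxycycline, 97.4 FPKM without it) and Fbxo15 (12.9 FPKM with doxycycline, 11.3 FPKM without it) were not called, and Zscan10 had no completed test.

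Epiblast genes, the class to which Sox2 and Sox3 belong, mostly fell. The authors' deposited table held 9 falls and 3 rises among the 13 tested, and 1 gene without a call, with a median log2 fold change of -0.88. Beside Pou3f1 and Utf1, the ligand gene Fgf5 fell to 17.8 FPKM with doxycycline, against 56.5 FPKM without it, and the zinc-finger gene Zic2 to 22.6 FPKM with doxycycline, against 51.2 FPKM without it. Nodal, Fgf8 and Tdgf1, which are signalling genes also used in the primitive streak, rose. Nodal stood at 36.5 FPKM with doxycycline and 15.9 FPKM without it. For comparison, the log2 fold change was -1.10 for Sox3 and -0.0034 for Sox2, and neither was tested against this list.

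Early neural plate genes, which share Sox1, Sox2 and Sox3 as markers, went both ways. Among the 15 tested genes, 5 rises stood beside 5 falls in the authors' deposited table, with a median log2 fold change of -0.17. Nes, the intermediate filament gene with a Sox2 and POU dependent enhancer, fell to 5.24 FPKM with doxycycline, against 13.8 FPKM without it, Pax6 to 0.260 FPKM with doxycycline, against 1.05 FPKM without it, and the fatty acid binding protein gene Fabp7 to 0.521 FPKM with doxycycline, against 2.40 FPKM without it. The Notch-related repressor Hes3 rose to 2.66 FPKM with doxycycline, against 0.149 FPKM without it, and Irx3 to 4.77 FPKM with doxycycline, against 0.395 FPKM without it. Gbx2 and Zfp521 rose as well, to 1.03 and 1.27 FPKM with doxycycline.

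Neuron genes, the later context of SoxC, were low apart from Stmn2 (44.9 FPKM with doxycycline, 40.6 FPKM without it, not called). Among the 8 tested genes, 3 rises stood beside 1 fall in the authors' deposited table, with a median log2 fold change of 0.19. Elavl3, an RNA-binding protein gene of neurons, fell to 1.57 FPKM with doxycycline, against 3.14 FPKM without it, and the 3 that rose stayed under 1 FPKM. In the list of neural crest and cartilage, where Sox9 acts, 5 rises and 2 falls stood among 11 tested genes in the authors' deposited table, with a median log2 fold change of 0.06. Tfap2a, a factor of neural crest and surface ectoderm, rose to 2.50 FPKM with doxycycline, against 0.180 FPKM without it. The BMP-responsive genes Msx1 (13.7 FPKM with doxycycline, 2.41 FPKM without it) and Msx2 rose, and Twist1 fell to 0.803 FPKM with doxycycline, against 1.33 FPKM without it. Col2a1, a cartilage gene driven by Sox9, was not called, at 2.37 FPKM with doxycycline and 2.33 FPKM without it.

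**Figure D5:**
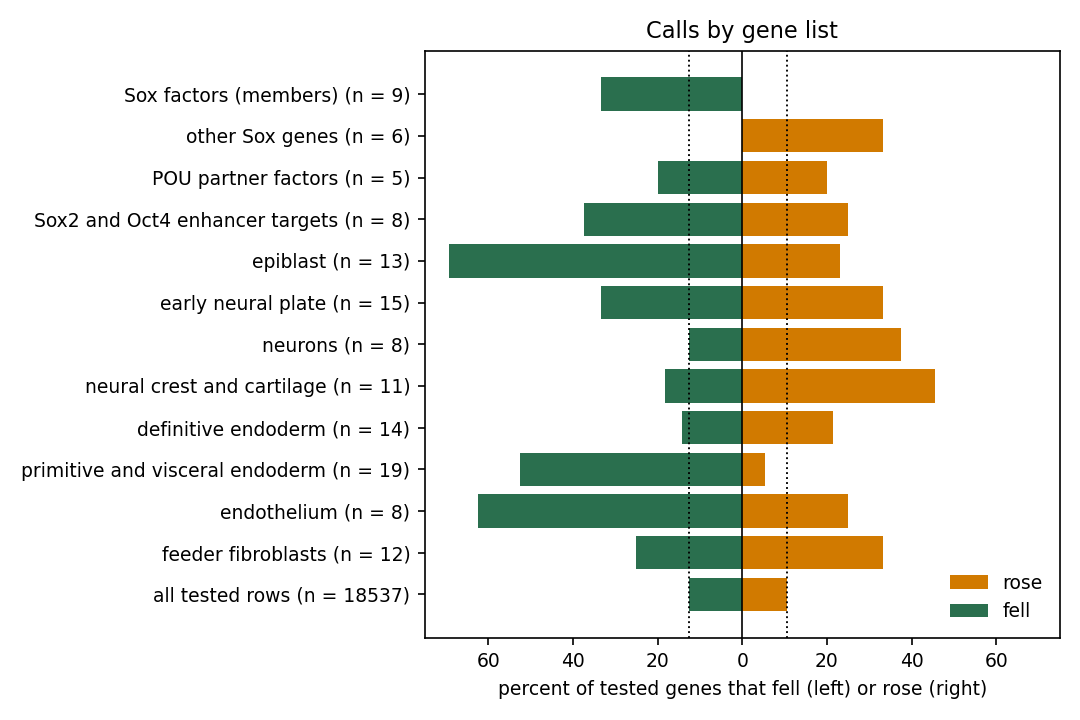
Percent of tested genes in each list that fell (green, to the left) or rose (orange, to the right) by the authors' q under 0.05, with dotted lines at the 12.7% of all tested rows that fell and the 10.5% that rose. The Sox factors show 33.3% falling and no rise, and the lists differ in size, so a bar can rest on few genes.

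Endoderm genes, the class of Sox17 and Sox7, were counted in 2 lists, and the difference between the lists was not tested. The 14 tested definitive endoderm genes held 3 rises, 2 falls and 9 genes without a call in the authors' deposited table, with a median log2 fold change of -0.06. The rises were those of the streak and endoderm factors Eomes (27.8 FPKM with doxycycline, 10.4 FPKM without it), Mixl1 and Gsc. Cer1, which encodes a secreted Nodal antagonist, fell to 2.90 FPKM with doxycycline, against 7.67 FPKM without it, and Cldn6 fell to 156 FPKM with doxycycline, against 227 FPKM without it. The 19 tested genes of primitive and visceral endoderm held 10 falls, 1 rise and 8 genes without a call in the authors' deposited table, with a median log2 fold change of -0.29. Lama1, a laminin chain of basement membrane, fell to 6.98 FPKM with doxycycline, against 11.8 FPKM without it, and Gata6, a primitive endoderm factor, to 2.76 FPKM with doxycycline, against 4.43 FPKM without it. Afp and Lamc1 fell too, and Ihh rose to 2.01 FPKM with doxycycline, against 1.32 FPKM without it. The log2 fold change of Sox7, -0.77, was close to that of Lama1, -0.76, which was the largest fall of this list, and the list median was -0.29. Whether Sox7 changed together with these genes was not tested.

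Other cells that embryoid bodies can hold were checked by their markers. Endothelial genes, where Sox7, Sox17 and Sox18 are known, had 5 of 8 tested genes falling and 2 rising in the authors' deposited table, with a median log2 fold change of -0.68. Among all tested rows, 12.7% fell and 10.5% rose. Of the 4 tested endothelial genes with at least 1 FPKM in the higher group, 2 fell and 2 rose. Etv2, a factor of blood and vessel precursors, fell to 1.47 FPKM with doxycycline, against 5.15 FPKM without it, and the receptor gene Flt1 to 0.705 FPKM with doxycycline, against 1.04 FPKM without it, whereas Esam and Pecam1 rose, to 6.16 and 5.14 FPKM with doxycycline. The defining genes Kdr and Cdh5 were among the falls but stood under 0.25 FPKM in both groups. Of 14 fibroblast genes, listed because the ES cells had been kept on feeder cells, 12 were tested, with 4 rises and 3 falls in the authors' deposited table. All 14 summed to 34.8 FPKM with doxycycline and 25.8 FPKM without it, none was listed at 0, and the part of such cells in the Sox values was not tested. Among called fibroblast genes with at least 1 FPKM in the higher group, the collagen gene Col1a1 rose to 4.43 FPKM with doxycycline, against 1.11 FPKM without it, Mmp2 to 14.9 FPKM with doxycycline, against 6.62 FPKM without it, and Col5a1 to 1.91 FPKM with doxycycline, against 1.03 FPKM without it. Dcn fell to 1.39 FPKM with doxycycline, against 2.08 FPKM without it, and Thy1 to 6.42 FPKM with doxycycline, against 9.34 FPKM without it.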

How the data were processed

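The members and gene lists were chosen with earlier results of these data known. Tools named in the submitters' processing notes are Cuffdiff, Cufflinks 2.0.2, Picard, Bowtie and TopHat2 2.0.8, with mouse build mm9; annotation, scaling and filters were not stated. The deposited table holds the authors' FPKM (1 value per group), log2 fold change, test statistic, p-value and q-value, per the file header. Their log2 fold change equalled that of the FPKM ratio to within 1.31e-05, and their q-values equalled a Benjamini-Hochberg adjustment over 18537 tested rows (status OK) to within 1.79e-06. The standard error was taken as fold change over statistic, a form the header does not state; the normal p of the statistic matched the deposited p within 0.001 in all 18284 rows with both groups above 0. One value per group allows no fit, so the authors' test is the only one. Starts were read as 0-based, which made 11704 of 27867 spans equal those of GENCODE vM21, against 316 otherwise. The 11 lists held 143 different genes, 4 of them in more than 1 list. Named were every Sox gene, POU gene and Sox2 and Oct4 target, and from the other lists called genes with at least 1 FPKM in the higher group, up to 4 per direction by fold; Col2a1, Stmn2, Kdr and Cdh5 were named after their values were seen. Python 3.11.15, numpy 2.4.6, pandas 2.3.3, scipy 1.17.1 and matplotlib 3.10.9 were used, and the computation was tested on simulated data.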

Additional observations from a re-analysis of the deposited data

How the results depend on the processing

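The falls of Sox3 and Sox7 were called under all 5 alternatives tried for the calls (q under 0.01, a minimum fold of 1.5, adjustment over rows with at least 1 FPKM, Bonferroni adjustment, and leaving out genes that share a locus). Sox4 was called at q under 0.01 and with adjustment over rows with at least 1 FPKM, and the count was 2 in place of 3 under each of the others. With a pseudocount of 1 FPKM, the log2 fold change was -0.996 for Sox3, -0.50 for Sox7 and 0.10 for Sox21, against -1.10, -0.77 and 0.56 without one. The other 33 recomputed fold changes moved by less than their implied standard error, under a pseudocount of 0.1 or 1 FPKM, median centring (shift -0.04) or upper quartile scaling (shift -0.04). A minimum fold of 1.5 left 2084 of the 4306 calls among all tested genes, with 1117 higher and 967 lower against 1949 and 2357, and 6 of 11 in primitive and visceral endoderm. Adjustment over rows with at least 1 FPKM, which tests fewer genes, left 1 of 2 calls among POU factors, 1 of 4 in neurons, 4 of 7 in neural crest and cartilage and 4 of 7 in endothelium. The other 17 list counts stayed within 1.5 times. No paired analysis was possible because the table holds 1 combined value per group, and for the same reason no replicate could be left out.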
